A study of Mus musculus with 31 samples.

Results

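The genes described here are 9 pituitary genes among the 15096 named genes on the arrays: the hormone genes Prl, Gh, Pomc, Cga, Lhb, Tshb and Fshb, and the regulators Tbx19 and Ghrhr. They were chosen by gene symbol, with their log ratios over the strains, their pairwise correlations and the high values on BXD6 already known. Those values are therefore a description and were given no test. The strains were BXD/TyJ recombinant inbred lines, which descend from a cross of C57BL/6J with DBA/2J and each carry a fixed mosaic of both parental genomes. Whole-brain RNA was extracted from males aged 8 weeks, and equal amounts from 3 animals were mixed for each of 31 strains. Each pool was labelled with Alexa Fluor 647 and hybridised once, with no dye swap, against C57BL/6J whole-brain RNA that carried Alexa Fluor 555 and a spike-in mix.

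The anterior pituitary is a gland that lies under the hypothalamus, joined to the brain by a stalk, and it secretes peptide hormones into the blood from separate cell types. Lactotrophs make prolactin, somatotrophs growth hormone and corticotrophs pro-opiomelanocortin. Gonadotrophs and thyrotrophs make the glycoprotein hormones, in which a common alpha subunit pairs with a beta subunit particular to each hormone. Hypothalamic peptides and dopamine control this release through receptors on the cells. Pomc is also expressed by neurons of the arcuate nucleus of the hypothalamus, whereas most of the other genes are known chiefly from the pituitary.

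Values are log2 ratios of a strain pool to the C57BL/6J pool. They give no absolute level, so the tissue label could not be checked against brain markers. Direction, log base and centring are not stated in the sources used here, and strain over reference was taken from the channel order. If it runs the other way, every sign of a log ratio or difference below turns, while the correlations stay as they are. In whole tissue, fewer cells of a type and less RNA per cell cannot be told apart. Each strain had 1 array of 1 pool, so a strain's value has no replicate, and SDs below are spreads between arrays. Without the 9 genes, the arrays fell into 3 groups that were noticed in the data and that the labels do not name. One holds 7 arrays: BXD6 with BXD36 and BXD38 of the later strains, and BXD8, BXD20, BXD23 and BXD28. Another holds 8: BXD33, BXD34, BXD39, then BXD40 and BXD42, together with BXD15, BXD22 and BXD27. The last holds the other 16. The leading 2 principal components, which carried 28.7% and 11.9% of the variance, separated them.

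Promoter windows are shown because Prl, Pomc and Cga had high values on the same array although the pituitary cells that make them differ. RefSeq (assembly GRCm38.p6) gave the 250 bases before the annotated start for 7 of the 9 genes, not for Gh and Ghrhr. Capitals mark matches, on either strand, to TATAAA (the TATA box), TATNCAT (a core of sites of the pituitary factor Pit-1) and AAGGTCA (a site of the SF-1 type). The windows are Prl at chr13:27057320-27057569, Pomc at chr12:3954695-3954944 and Cga at chr4:34893529-34893778, all on the plus strand, written 5′ to 3′ and ending at the base before the start.
Prl: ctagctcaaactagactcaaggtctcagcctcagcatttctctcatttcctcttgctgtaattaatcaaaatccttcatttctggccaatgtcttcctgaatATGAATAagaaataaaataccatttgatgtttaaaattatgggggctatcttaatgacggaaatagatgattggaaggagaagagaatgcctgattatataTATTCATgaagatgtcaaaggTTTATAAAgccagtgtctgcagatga
Pomc: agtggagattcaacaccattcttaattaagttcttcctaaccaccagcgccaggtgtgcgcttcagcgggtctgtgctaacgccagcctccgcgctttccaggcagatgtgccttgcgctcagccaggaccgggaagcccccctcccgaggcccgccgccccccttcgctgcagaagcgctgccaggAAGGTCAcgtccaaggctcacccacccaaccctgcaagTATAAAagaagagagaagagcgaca
Cga: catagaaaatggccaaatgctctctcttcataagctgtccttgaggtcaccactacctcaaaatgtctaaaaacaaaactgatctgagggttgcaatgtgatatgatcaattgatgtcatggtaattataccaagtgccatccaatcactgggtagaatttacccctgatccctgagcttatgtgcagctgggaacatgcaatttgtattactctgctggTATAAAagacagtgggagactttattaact
All 3 windows held a TATA box, at −24 to −19 from the start in Prl, −25 to −20 in Pomc and −30 to −25 in Cga. Prl also had an overlapping reverse-strand match at −26 to −21. The TATA box was not particular to these 3 genes. Lhb (−31 to −26), Tshb (−27 to −22) and Fshb (−30 to −25) held it too, and Tbx19 did not. Prl alone of the 7 windows held the Pit-1 core, at −47 to −41 and, on the reverse strand, at −148 to −142. Pomc held the SF-1 type site at −63 to −57. In Lhb, the beta subunit gene of luteinizing hormone and a known target of SF-1, that site lay on the reverse strand at −129 to −123. Among all 32841 promoter windows of this length, 12.4% held TATAAA, 7.93% TATNCAT and 4.08% AAGGTCA. The letters TAATCC (a bicoid-type site, in 6.25% of all windows) and TCACACC (a T-box core, in 3.33%) were in 0 of the 7. A match is a run of letters, and binding was not measured here.

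**Figure D1:**
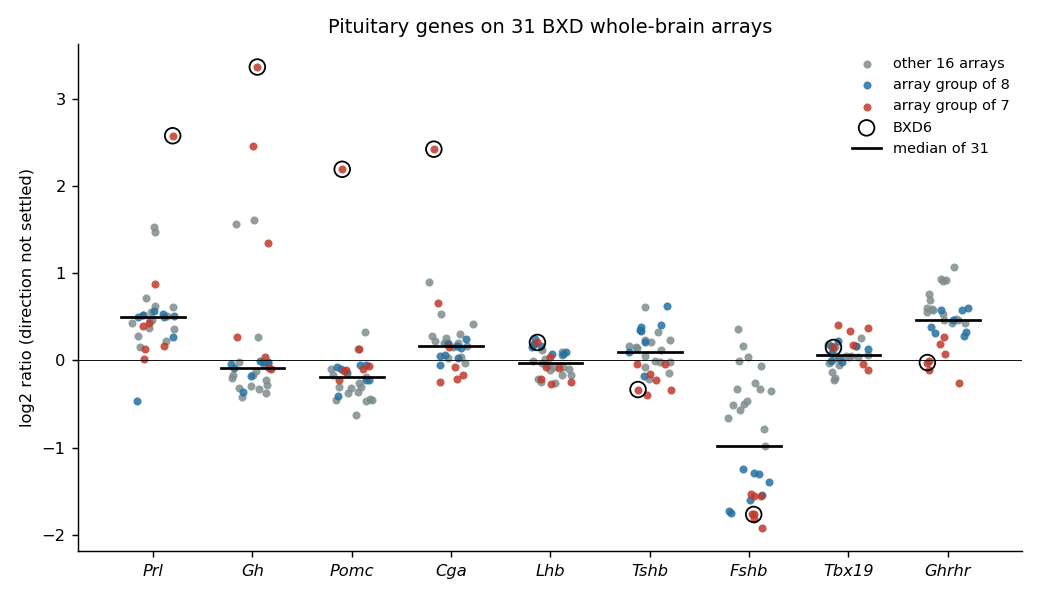
Log2 ratio of each of the 31 strain pools to the C57BL/6J pool (vertical axis) for the 9 genes (horizontal axis); each point is 1 array, coloured by array group, BXD6 is circled, and bars are medians. BXD6 is the top point for Gh (3.37), Prl (2.58), Cga (2.42) and Pomc (2.19), and Fshb is spread below 0.

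Prl, which encodes the milk-promoting hormone of lactotrophs, ran from −0.46 on BXD22 through a median of 0.50 to 2.58 on BXD6. BXD1 (1.53) and BXD16 (1.47) came next, and 30 of the 31 values were above 0. The mean was 0.54 ± 0.52 (SD, n = 31), and 0.47 ± 0.37 without BXD6. Prl was thus positive almost throughout, with 3 strains well above the others.

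Gh encodes growth hormone, and its values had another form. The lowest was −0.41 on BXD18, the median −0.08 and the highest 3.37 on BXD6, followed by BXD20 at 2.46, BXD11 at 1.61, BXD1 at 1.56 and BXD36 at 1.35. These 5 values lay above 1 while 23 of the 31 lay at or below 0, so most strains sat close together and a few far above. The SD of 0.89 exceeded that of 99.7% of the named genes, and without BXD6 an SD of 0.69 still exceeded that of 98.5%.

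Pomc encodes the precursor of ACTH, of the melanocortins and of beta-endorphin. It ran from −0.63 on BXD18 through a median of −0.19 to 2.19 on BXD6, and the next value was only 0.33 on BXD11. Its spread rested on that array: the SD was 0.47 over 31 strains and 0.20 over 30, and the share of named genes with a smaller SD went from 90.6% to 24.8%. The separate probe of Pomc-ps1, a Pomc pseudogene, read 0.16 on BXD6 and had its highest value, 0.73, on BXD11.

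Cga encodes the alpha subunit that thyrotropin, luteinizing hormone and follicle-stimulating hormone share. It ran from −0.25 on BXD23 through 0.16 to 2.42 on BXD6, with BXD1 (0.90), BXD20 (0.66) and BXD2 (0.53) next. Here too the SD fell when BXD6 was left out, from 0.47 to 0.24. For Pomc and Cga the other 30 arrays did not reach 1.

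None of the beta subunits, which give each glycoprotein hormone its receptor specificity, was as high on BXD6 as Cga. Lhb stayed within −0.27 (BXD28) and 0.25 (BXD34), with a median of −0.04 and 0.21 on BXD6. Tshb, the beta subunit of thyrotropin, ran from −0.39 on BXD36 through 0.10 to 0.62 on BXD39. On BXD6 it was −0.33, among the 3 lowest. Fshb, the beta subunit of follicle-stimulating hormone, ran from −1.92 on BXD8 through −0.98 to 0.36 on BXD32 and also had a low value on BXD6, −1.77. So on the array where Cga was highest, 1 beta subunit was near the top of a narrow range and the other two were near the bottom of theirs. The low values were shared by the array group of BXD6. Against the median of the other 6 arrays of that group, BXD6 differed by only −0.15 for Tshb and −0.11 for Fshb.

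Neither regulator was high on BXD6. Tbx19, the T-box factor that drives Pomc in corticotrophs, stayed within −0.22 (BXD18) and 0.40 (BXD38), with a median of 0.06 and 0.15 on BXD6. Its SD of 0.15 was larger than that of only 5.68% of named genes. Ghrhr, the receptor through which hypothalamic GHRH drives growth hormone release, ran from −0.26 on BXD28 through 0.47 to 1.07 on BXD2. It was −0.02 on BXD6, which was among its 3 lowest.

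Set against the median of the other 30 strains, BXD6 was higher by 3.45 for Gh, 2.40 for Pomc, 2.26 for Cga and 2.10 for Prl. Ranked over the 15096 named genes of that array, these differences stood at 1, 5, 6 and 11. In units of the SD over the other 30 arrays they came to 11.8 for Pomc, 9.37 for Cga, 5.68 for Prl and 5.03 for Gh. The median absolute deviation, scaled to equal the SD for normally distributed values, was also used as the spread. It gave 19.7 for Gh, 13.4 for Pomc, 13.3 for Cga and 12.3 for Prl, so the order among the 4 depends on that choice. Lhb (0.25, or 1.67 SD) lay above the median and Tbx19 (0.09, or 0.59 SD) close to it. Tshb (−0.44, or −1.73 SD), Ghrhr (−0.50, or −1.64 SD) and Fshb (−0.88, or −1.27 SD) lay below it. Against the other 6 arrays of its group alone, these 3 differences were −0.15, −0.06 and −0.11. With the first principal component removed they were −0.20, 0.001 and 0.14. In all, 4 of the 9 genes had their highest value on BXD6, against 858 of the named genes (5.68%). Within its array group 5 of the 9 did, with Lhb added (0.21, against at most 0.04 on the other 6 arrays). With 3 principal components removed it was also 5. The share of named genes was not counted in those settings. Over all strains, a difference above 1 was found for 279 named genes (1.85%) and above 2 for 13. Among the other 9 genes above 2 were Zfp825 (2.55), Vmn1r15 (2.47) and Atp8a1 (2.41), which are not pituitary hormone genes.

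Spots next to the 4 hormone probes by probe number, taken here as printing order, did not stand as high on BXD6. Over 8 neighbours each, the differences ran from −0.77 to 0.37 around Prl, −0.74 to 0.25 around Pomc and −0.29 to 0.56 around Cga. Around Gh they ran from −0.18 to 1.26, and the Gh spot itself differed by 3.45. All of its neighbours but Bri3 (−0.09) and Usp12 (−0.18) were raised there, by 0.41 (Sqstm1) or more. The part of spot position in the BXD6 values was not tested.

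The next strains did not repeat the combination seen on BXD6. BXD1 came nearest, with differences to the median of the others of 1.65 for Gh, 1.05 for Prl, 0.74 for Cga and 0.34 for Pomc. BXD20 was high in Gh (2.55) with 0.49 for Cga and 0.34 for Pomc, but its Prl was low (−0.48). BXD11 was high in Gh (1.70) and, less so, in Pomc (0.53), with Prl at 0.02 and Cga at −0.14. BXD36 stood out in Gh (1.44), with 0.39 for Prl. BXD16 stood out in Prl (0.99), while its Gh, Pomc and Cga were not above −0.05. Prl and Gh, whose cells arise from a common lineage that depends on Pit-1, were thus both more than 1 above the median of the others on BXD6 and BXD1.

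**Figure D2:**
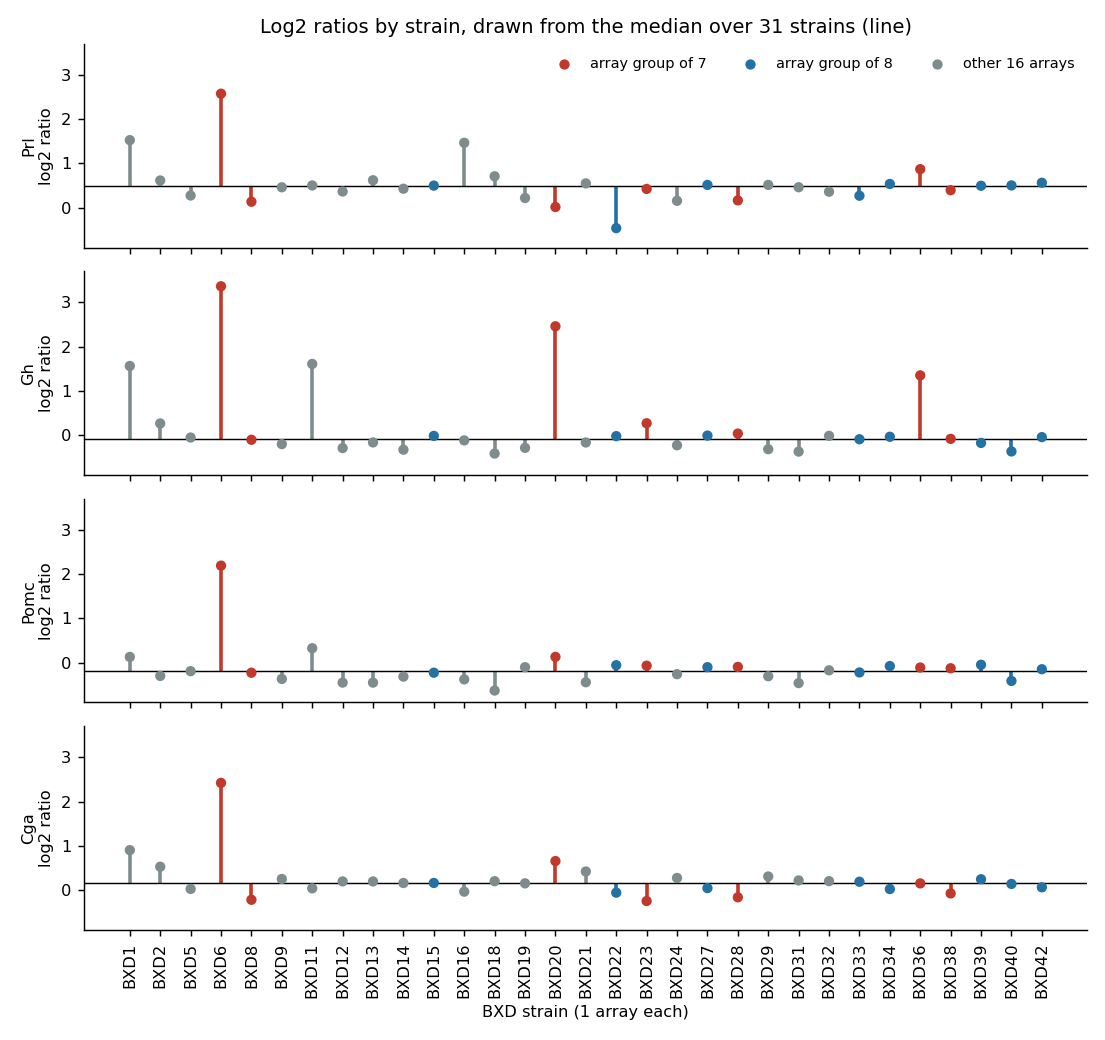
Log2 ratio (vertical axis) of Prl, Gh, Pomc and Cga on each of the 31 strain arrays (horizontal axis, by strain number), drawn from the gene's median (line) and coloured by array group. All 4 genes peak on BXD6, whereas Gh alone exceeds 2 on BXD20 (2.46) and Prl is above 1 on BXD1 (1.53) and BXD16 (1.47).

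Pairwise correlations describe how far the genes moved together over strains. The 2 values of a pair come from the same array and share its RNA pool and hybridisation. Over the 36 pairs of the 9 genes, Pearson's r averaged 0.0998 for 31 strains and 0.0733 for the 30 without BXD6. The 6 pairs among Prl, Gh, Pomc and Cga averaged 0.709, but Spearman's rho averaged 0.134, and without BXD6 the mean r was 0.261. The number of pairs with r above 0.5 went from 7 to 3 when BXD6 was left out. The other 30 pairs averaged −0.0220.

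Gh and Pomc were the pair that kept a high r on the other strains. Their r was 0.82 (rho 0.77) over 31 strains and 0.72 (rho 0.74) over 30. It was 0.80 within the 7 arrays, 0.68 (rho 0.14) within the 8 and 0.85 within the 16. Without BXD6, BXD1, BXD11 and BXD20, a choice made after the values were seen, r was 0.46 and rho 0.65. The other pairs among these genes had a lower r without BXD6. Pomc with Cga went from 0.79 to 0.03, Prl with Pomc from 0.62 to −0.11, Prl with Gh from 0.55 to 0.15, Prl with Cga from 0.74 to 0.34, and Gh with Cga from 0.73 to 0.42, where rho was −0.18. On the 6 arrays that share the group of BXD6, Gh with Cga had r of 0.95 (rho 0.60) and Pomc with Cga 0.84 (rho 0.26), both with the high Gh array BXD20 among them.

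**Figure D3:**
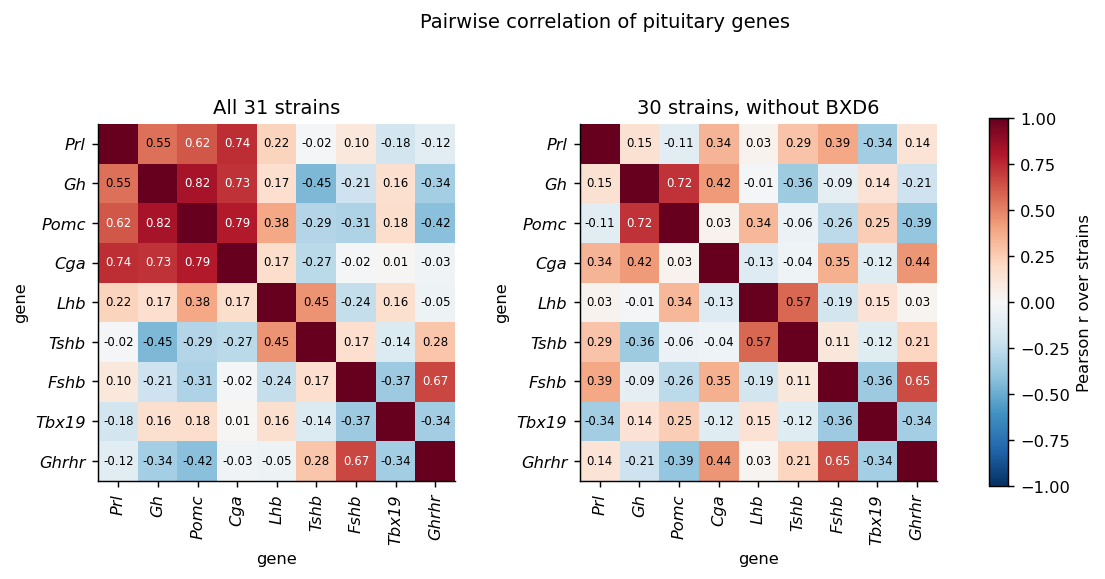
Pearson's r between the 9 genes (both axes) over 31 strains (left) and over the 30 without BXD6 (right), with r from −1 to 1 as colour. Gh with Pomc stays high in both panels (0.82 and 0.72), while Pomc with Cga goes from 0.79 to 0.03.

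A pair of the remaining correlations were near or above 0.5 in both settings. Fshb with Ghrhr had r of 0.67 over 31 strains and 0.65 over 30, and Lhb with Tshb 0.45 and 0.57. Within the array groups these did not all hold. Fshb with Ghrhr had r of −0.20 within the 7 arrays, −0.17 within the 8 and 0.14 (rho −0.02) within the 16. Lhb with Tshb had −0.28, 0.08 and 0.54.

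Ranked over the other 15095 named genes by Pearson's r, each of Prl, Gh, Pomc and Cga had another of these 4 at rank 1. Cga ranked 1 for Prl, Pomc ranked 1 for Gh and for Cga, and Gh ranked 1 for Pomc, with Cga at rank 2 and Pdlim4 (0.79) at 3. Prl stood lower, at rank 47 for Pomc and 164 for Gh. Kif26b (0.80) was the next gene for Gh after Pomc. Without BXD6, Gh kept rank 1 for Pomc and Pomc had rank 2 for Gh, behind Cypt12 (0.75). Cga then stood at 694 for Prl, and Pomc at 6668 for Cga. The genes most like the other members over 31 strains were 9230112D13Rik (0.76) for Lhb, Hoxa5 (0.80) for Tshb, Muc6 (0.98) for Fshb, Itfg1 (0.79) for Tbx19 and Akp3 (0.84) for Ghrhr.

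The values of Fshb, Ghrhr and Tshb went with the array groups. These groups were drawn from the other genes of the same arrays. The share of all genes that separate between them in this way was not counted. Fshb averaged −1.70 ± 0.15 (SD, n = 7; −1.92 to −1.53) on the 7 arrays and −1.48 ± 0.20 (SD, n = 8; −1.76 to −1.25) on the 8. On the 16 it averaged −0.33 ± 0.36 (SD, n = 16; −0.98 to 0.36), with no overlap with either. By probe number, its probe is the last of a run of 8 spots, as are the probes of 1909 named genes (12.6%), whose mean log ratio was −0.50 against 0.04 for the rest. Of the 100 genes most like Fshb, 90 had a probe in that place. All 1909 such genes together averaged −0.40 on the 7 arrays, −0.52 on the 8 and −0.54 on the 16. That mean covers every gene in the place, not only those most like Fshb. The part of spot position in the Fshb values was not tested.

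Ghrhr averaged 0.02 ± 0.18 (SD, n = 7; −0.26 to 0.27) on the 7 arrays, 0.44 ± 0.13 (SD, n = 8; 0.28 to 0.60) on the 8 and 0.65 ± 0.21 (SD, n = 16; 0.42 to 1.07) on the 16. The 7 arrays thus lay below all others, again with the share of all genes not counted. Tshb was below 0 on all 7 of those arrays, at −0.22 ± 0.14 (SD, n = 7), and averaged 0.28 ± 0.24 (SD, n = 8) on the 8 and 0.11 ± 0.20 (SD, n = 16) on the 16. Lhb was above 0 on all of the 8, at 0.15 ± 0.06 (SD, n = 8), and averaged −0.09 ± 0.17 (SD, n = 7) on the 7 and −0.08 ± 0.12 (SD, n = 16) on the 16. Tbx19, also probed in the last place of a run, had overlapping values at 0.18 ± 0.20 (SD, n = 7), 0.10 ± 0.09 (SD, n = 8) and 0.03 ± 0.14 (SD, n = 16).

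In the array group that holds BXD6, Gh was also high on BXD20 (2.46) and BXD36 (1.35), whereas Prl, Pomc and Cga stayed below 1 on the other 6 arrays. On these 6 Prl averaged 0.34 ± 0.31, Gh 0.66 ± 1.04, Pomc −0.08 ± 0.12 and Cga 0.02 ± 0.34 (SD, n = 6). On the 16 arrays, which include BXD1, BXD11 and BXD16, the means were 0.58 ± 0.39, 0.03 ± 0.63, −0.27 ± 0.24 and 0.25 ± 0.22 (SD, n = 16).

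**Figure D4:**
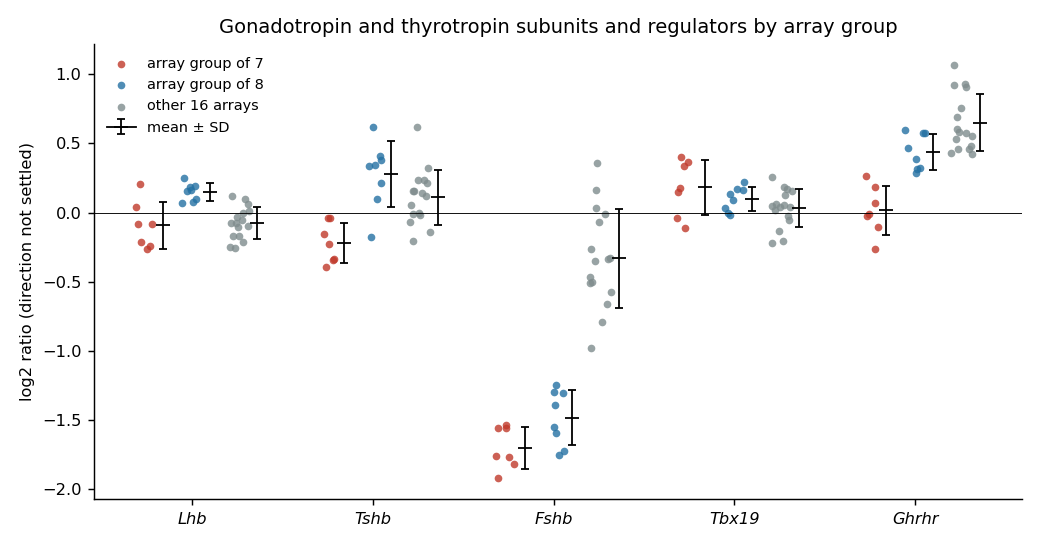
Log2 ratio (vertical axis) of Lhb, Tshb, Fshb, Tbx19 and Ghrhr (horizontal axis) by array group (7, 8 and 16 arrays, noticed in the data); points are arrays, with the mean ± SD of each group beside them. Fshb on the 16 arrays (−0.98 to 0.36) lies above all values of the other arrays, and Ghrhr on the 7 (−0.26 to 0.27) lies below all other arrays. The share of all genes that separate like this was not counted.

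The rule for choosing the genes made no use of the origin of the strains. BXD33 to BXD42 were derived in a later set of inbreeding than BXD1 to BXD32, and their 7 arrays were compared with the 24 of the earlier strains by limma over all 21262 features. A positive difference means a higher log ratio in the later set. Of the 9 genes, 0 passed an adjusted p of 0.05, beside 102 features (0.48%) in all, and 4301 features at an unadjusted p under 0.05. Fshb had the largest difference: it averaged −1.55 ± 0.17 (SD, n = 7; −1.76 to −1.30) in the later set and −0.76 ± 0.70 (SD, n = 24; −1.92 to 0.36) in the earlier one. The values overlapped, and the difference was −0.79 (95% CI −1.31 to −0.27; limma adjusted p 0.0973). With array group as a term it was −0.01 (95% CI −0.33 to 0.31; limma adjusted p 0.996). The 16 arrays hold 0 of the later strains.

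The other 8 genes gave smaller differences, each with an interval that included 0. For Prl it was −0.03 (95% CI −0.47 to 0.42), for Gh −0.19 (−0.94 to 0.56), for Pomc −0.05 (−0.45 to 0.36) and for Cga −0.17 (−0.57 to 0.22). The 5 strains with Gh above 1 were all in the earlier set except BXD36. For Lhb it was 0.11 (−0.03 to 0.25), for Tshb 0.15 (−0.08 to 0.38), for Tbx19 0.07 (−0.07 to 0.21) and for Ghrhr −0.18 (−0.44 to 0.08). Limma adjusted p-values of these 8 lay from 0.375 to 0.958. With array group as a term, 0 of the 21262 features passed (0%), and 1551 had an unadjusted p under 0.05. The differences were then 0.15 for Prl, −0.32 for Gh, −0.25 for Pomc and −0.15 for Cga.

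**Figure D5:**
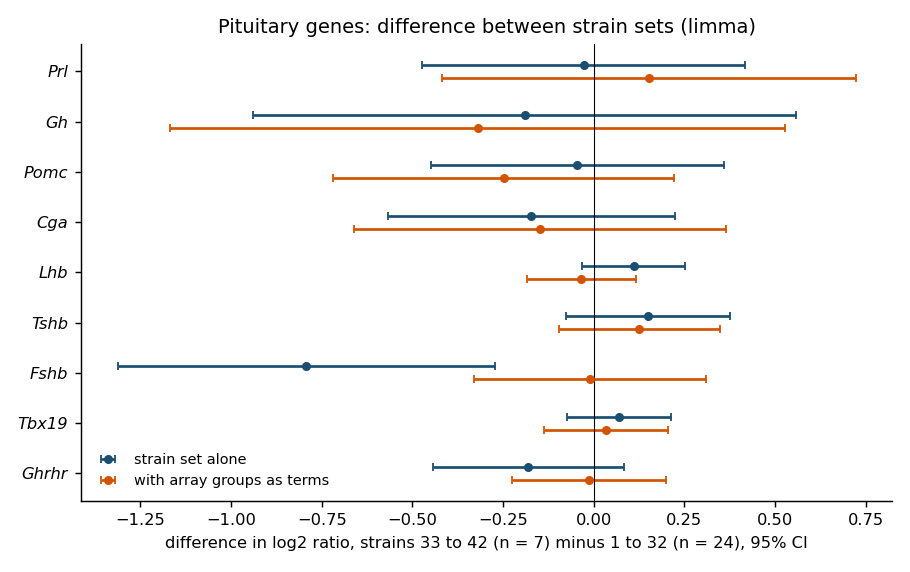
Difference in mean log2 ratio (horizontal axis) between the 7 strains BXD33 to BXD42 and the 24 strains BXD1 to BXD32 for the 9 genes (vertical axis), with 95% intervals from limma, as fitted and with array group as a term. The Fshb difference goes from −0.79 to −0.01 with that term, and the other intervals include 0.

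The remaining genes of the hypothalamic and pituitary system were described through lists, by the same 2 measures: the limma test of the mean log ratio against 0, and the difference on BXD6. The test of the mean called 42.1% of the 21262 features positive and 33.9% negative, so a called gene is ordinary here. Over 149 other list genes measured, 65 passed with a positive mean and 48 with a negative mean; against a change of 1.2-fold, 12 and 18 did, and Lhx3, Gnrhr and Th below no longer passed.

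Of 22 measured transcription factors of pituitary development, 9 passed with a positive mean and 8 with a negative one, with a median of −0.04. Pitx1, an early factor of the pituitary primordium, averaged −0.42 ± 0.06 (SE, n = 31), and Lhx3, which specifies anterior pituitary cells, 0.13 ± 0.04 (SE, n = 31). On BXD6 the list's differences had a median of −0.11 and ran from −0.59 to 0.93, the last for Pitx1. The top one was thus below those of Prl, Gh, Pomc and Cga, and 1 factor, Nr0b1, had its highest value there. Among 20 genes for receptors and signals of pituitary cells, 10 passed as positive and 3 as negative, with a median of 0.16. They include the dopamine receptor Drd2, through which dopamine restrains lactotrophs (0.40; also expressed in the striatum), and Gnrhr, the receptor on gonadotrophs (0.28 ± 0.06, SE, n = 31). Their differences on BXD6 ran from −0.83 (Oxtr) to 0.50 (Sstr2), and Sstr3 (0.49) and Inhbb (0.37) were the next highest. Drd2 differed by 0.25, Gnrhr by −0.36 and Crhr1, the corticotroph receptor for CRH, by 0.14.

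Of 11 measured genes of hormone processing and secretory granules, 2 passed as positive and 3 as negative. Their differences on BXD6 were spread widely, from −1.68 to 2.03. The top one was Pam, which amidates peptide hormones: it read 2.58 on BXD6, while its values on the other strains reached 2.60. The bottom one was Chga, chromogranin A of the secretory granules, which had its lowest value of the 31 arrays on BXD6. Pcsk1, the convertase that cleaves the Pomc product to ACTH, differed by −0.32. Genes of the secretory pathway therefore did not stand on the same side on BXD6.

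Of 17 hypothalamic peptide and enzyme genes measured, 10 passed as positive and 5 as negative, with a median of 0.11. Ghrh, which drives growth hormone release, averaged 0.05 ± 0.03 (SE, n = 31) and did not pass. Th, the dopamine synthesis enzyme, averaged 0.26 ± 0.03 (SE, n = 31) and passed. The list's differences on BXD6 ran from −0.89 to 0.78 with a median of −0.05, and 2 of the 17 (Oxt and Pmch) were highest there. Of 14 hormone receptors and targets outside the pituitary, 5 passed as positive and 4 as negative. Igf1, the liver and tissue mediator of growth hormone, averaged −0.68 and was the single one of them with a difference above 1 on BXD6 (1.11). Of 12 other members of the prolactin family, most of them placental, 2 passed as positive and 8 as negative, with a median of −0.37. Their differences on BXD6 ran from −0.51 to 0.55, so the high Prl value there was not seen at the probes of its relatives.

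Marker lists of tissues that border or can accompany a dissected brain showed smaller differences on BXD6. Over 12 pineal genes the median was 0.10 (−0.34 to 0.66), over 8 choroid plexus genes −0.08 (−0.26 to 0.61), over 13 meningeal genes −0.03 (−0.42 to 0.46) and over 5 blood genes 0.08 (−0.23 to 0.38). Of these, 1 pineal gene and 2 meningeal genes (Dcn and Lum) were highest on BXD6, and 0 had a difference above 1. Over 7 striatal genes of the brain itself the median was −0.06 (−0.44 to 0.67). Over 11 cerebellar genes it was −0.11 (−1.01 to 0.25), and the lowest of these, Cbln3, had its lowest value of the 31 arrays on BXD6. Because values are ratios, none of these lists could be read as a level, and their part in the BXD6 values was not tested.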

How the data were processed

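The authors deposited log ratios of 31 arrays by 23040 spots, taken here as log2; the submitters' processing notes name R 2.0.0 and limma. How background was corrected, and how each array was normalized, was not given in the sources used here. Sorted values were identical between arrays, so these had been quantile normalised to each other, and 0 values were missing. Symbols came from the platform annotation (16874 probes with 1 symbol). Probes of a gene were averaged into 15096 named genes, which with 6166 other spots gave 21262 features; each of the 9 genes has 1 probe. Tests used limma 3.58.1 (lmFit, eBayes) over all features with Benjamini-Hochberg adjustment, in R 4.3.3; their p-values measure the spread between arrays, 1 pool each, and the number of arrays limits precision. Alternatives were array groups as terms, single arrays or array groups left out, Spearman's rho, principal components removed, array centring and a 1.2-fold test. The members and lists were chosen with earlier results of these data known. Genes named for the lists are part of the extremes, and other extremes, among them Sstr5, Eya1, Nts and Mc5r, were not named. The members and their nearest genes by r are named as well. Lhx3, Gnrhr, Crhr1, Pcsk1, Chga, Ghrh and Th were picked for their roles after their values were seen. On simulated data for 15096 genes, the test of the mean recovered shifts of 0.5 and 1 for 98 and 100 of 100 genes. It made 14 false calls. The test between strain sets recovered these shifts for 64 and 94 of 100 genes and made 6 false calls. How far these shares hold for the measured arrays, with their array groups, was not tested. Each gene on an array is read from intensities that were not analysed here, so dim or saturated probes could not be told.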

Additional observations from a re-analysis of the deposited data

Results flagged for a closer look

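Gh on BXD36 stood apart within the 7 later strains: it was 1.35, while the other 6 ran from −0.37 to −0.04, a gap of 0.807 of the whole range. High Gh values were among those that chose the genes, so this is a description with no test.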

How the results depend on the processing

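The mean r of the 36 pairs (0.0998) became 0.0469 with Spearman's rho, 0.188 without the genes probed in the last place of a run, 0.187 with 3 principal components removed, 0.0379 without the 7 arrays and 0.0480 without BXD6, BXD1, BXD11 and BXD20. For the 6 pairs among Prl, Gh, Pomc and Cga (0.709), it was 0.134 with Spearman's rho, 0.261 without BXD6, 0.113 without the 2 arrays farthest from the median and −0.0211 without BXD6, BXD1, BXD11 and BXD20. The settings that leave out those 4 strains were chosen after seeing the data. Against a change of 1.2-fold, 12 list genes passed as positive and 18 as negative, in place of 65 and 48. Between strain sets, 0 features passed with array groups as terms, 0 within the 7 arrays (1100 at an unadjusted limma p under 0.05), 0 within the 8 (1188) and 226 without BXD6, against 102. Fshb then differed by 0.22 within the 7 arrays, −0.19 within the 8 and −0.84 without BXD6 (limma adjusted p 0.0687). None of the 54 strain-set differences of the 9 genes over the alternative settings passed an adjusted p of 0.05, as in the main test. With array groups as terms and within the 7 or the 8 arrays, 0 of all features passed, so those settings could not show a change. Changes of sign among differences that did not pass were not counted. With 1 and 3 principal components removed, the Gh difference on BXD6 was 2.72 and 2.23. Removing 3 components also changed r with Lhb. It went from 0.22 to 0.55 for Prl, 0.17 to 0.55 for Gh, 0.38 to 0.68 for Pomc and 0.17 to 0.46 for Cga. Each of the 9 genes has 1 probe, so the probe-by-probe alternative gave no separate values. No paired analysis was possible because the strains share no replicate numbers. The limits are 1 array per strain with no dye swap, an unstated direction and log base, array groups of unknown origin, and no intensities over background.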
